A study of Mus musculus with 8 samples.

Results

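The effect of IL-4 in Gpr137b-knockout (KO) RAW264 cells was measured on 4 of the 8 arrays of the series: 2 without IL-4 and 2 treated with IL-4 for 48 h. They were chosen by their labels, as the arrays of genotype Gpr137b -/- with and without IL-4, and each treated array was paired with the untreated array of its own clone, KO1 or KO2. RAW264 is an established line of mouse cells that resemble macrophages, and each KO line is a single clone edited with CRISPR/Cas9. The other 4 arrays came from 2 wildtype (WT) clones of genotype Gpr137b +/+, measured with and without IL-4, and are used below only to set the response of KO cells beside that of WT cells. For IL-4 treatment the medium was replaced by a serum-deprived one containing BSA. The sources used here do not say whether untreated cells received that medium too, so effects of IL-4 and of the medium cannot be told apart.

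IL-4 is a cytokine of type 2 immunity. It binds a receptor made of Il4ra and a second chain, and Janus kinases on that receptor phosphorylate Stat6, which enters the nucleus and switches on genes of alternative, or M2, activation in macrophages. Mgl2, Clec10a, Arg1, Chil3, Retnla and Mrc1 are widely used mouse M2 markers. The product of Gpr137b is a membrane protein of lysosomes with the fold of a G-protein-coupled receptor and no known ligand.

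Signals are given on a log2 scale, on which a change of 1 is a doubling or a halving, and come from intensities normalized by SST-RMA, a robust multi-array averaging method. A probe set was called above background when its signal exceeded the 95th percentile of 23 antigenomic control probe sets on the same array. That background lay between 6.66 and 6.78 on the 4 KO arrays, and 42.8% to 43.7% of the probe sets were above it. Of the 9 macrophage markers measured, 8 were above background on at least 1 KO array, Mertk being the exception. The summed signal of the 9 was 20.12 without and 20.13 with IL-4 in KO1, and 20.11 and 20.12 in KO2. Markers of T cells, B cells, fibroblasts, epithelial cells, endothelial cells, mast cells and dendritic cells were below background on all 4 KO arrays. Of the 4 neutrophil markers measured, 2 were above background on at least 1 KO array. S100a8, an alarmin gene of neutrophils and monocytes, gave 7.68 without and 6.45 with IL-4 in KO1, and 10.40 and 7.22 in KO2 (adjusted p = 0.233 from limma). The summed signal of the 4 genes was 8.82 without and 8.11 with IL-4 in KO1, and 10.57 and 8.25 in KO2, and its part in the results below was not tested. In RNA from whole cultures, fewer cells of a type and less RNA per cell cannot be told apart.

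Gpr137b itself gave a signal of 10.24 without and 10.00 with IL-4 in KO1, and of 11.12 and 10.82 in KO2. The edited gene was thus well above background on all 4 arrays, and the log2 change with IL-4 was −0.27 (95% interval −1.05 to 0.51, adjusted p = 1 from limma). The position of the edit within Gpr137b is not named in the sources used here. Probes that lie outside it do not check the knockout. The relatives Gpr137 and Gpr137c did not pass the test either, with changes of 0.09 and 0.24 (adjusted p = 1 for both, limma).

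IL-4 changed 25 of the 22206 probe sets tested in KO cells, or 0.113% (limma with the clone as a block, Benjamini-Hochberg adjusted p under 0.05). Of these, 20 rose, or 0.0901% of all tested, and 5 fell, or 0.0225%. Gene symbols were available for 17 of those that rose and for all 5 that fell. They included M2 lectins, subunits and accessory chains of cytokine receptors, a growth factor, a regulator of polyamine synthesis and an enzyme of nucleoside metabolism. The smallest change among them was 3.34-fold. Without the clone as a block 7 probe sets passed, all of them higher. Leaving out KO1 left 4 calls (Mgl2, Clec10a, Rnf19b and Il20rb), and leaving out KO2 left 8. The KO arm is then a single pair of arrays without a spread of its own, and the error comes from the WT clones. In a fit of the 4 KO arrays alone, with the clone as a block, 96 probe sets passed, the 25 among them. That fit has 1 residual degree of freedom.

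**Figure D1:**
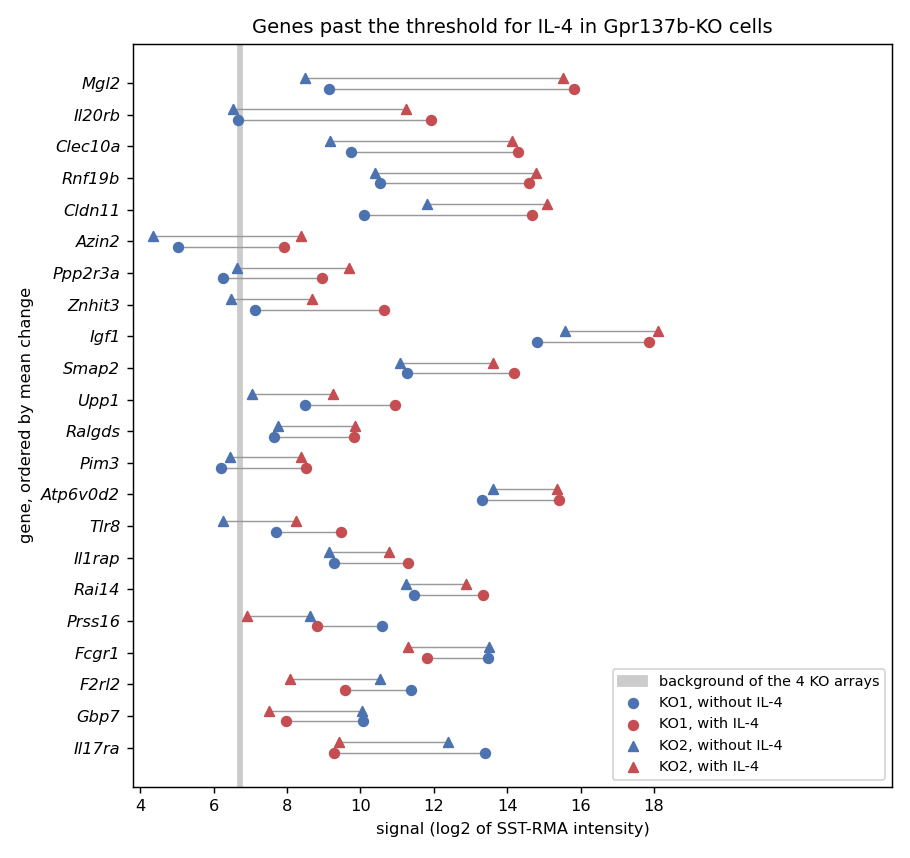
Signals of the 22 named genes that passed the test for IL-4 in KO cells, on the log2 scale of SST-RMA intensity. Circles are KO1 and triangles KO2, blue is without and red with IL-4, grey lines join the 2 arrays of a clone, and the grey band spans the background of the KO arrays, 6.66 to 6.78. The 17 genes that rose lie above the 5 that fell, and the signals with and without IL-4 overlap between clones only for Prss16.

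The upstream sequences of these genes were searched for 2 palindromic motifs that STAT factors are known to bind, since Stat6 carries the IL-4 signal. These were TTCNNNGAA, the spacing common to most STAT factors, and TTCNNNNGAA, the spacing that Stat6 also accepts. RefSeq promoters (GRCm38.p6) matched 15 of the 22 named genes, 12 that rose and 3 that fell, and the 250 bases before each annotated start were read. Both motifs read the same on either strand, so 1 search covers both. TTCNNNNGAA occurred in 5.85% of all 32851 promoters and in 6.76% of 27025 genes. Among the called genes it occurred in 3 of the 12 that rose, Ppp2r3a, Ralgds and Tlr8, and in 0 of the 3 that fell. TTCNNNGAA occurred in 7.02% of all promoters and in 8.13% of genes. It occurred in 1 of the 12 that rose, Tlr8, and in 2 of the 3 that fell, Fcgr1 and Gbp7. A match is a description of the letters and not a binding site, and no difference was tested. The 6 sequences below are shown because they are the upstream sequences of the gene with the largest change, Mgl2, and of the 5 called genes with a match, with the matches in capitals. They lie at chr11:70130107-70130356 (Mgl2, plus strand), chr9:101251833-101252082 (Ppp2r3a, minus), chr2:28533214-28533463 (Ralgds, plus), chrX:167264330-167264579 (Tlr8, minus), chr3:96293970-96294219 (Fcgr1, minus) and chr3:142530086-142530335 (Gbp7, plus), each printed 5′ to 3′ on the strand of its gene.
Mgl2: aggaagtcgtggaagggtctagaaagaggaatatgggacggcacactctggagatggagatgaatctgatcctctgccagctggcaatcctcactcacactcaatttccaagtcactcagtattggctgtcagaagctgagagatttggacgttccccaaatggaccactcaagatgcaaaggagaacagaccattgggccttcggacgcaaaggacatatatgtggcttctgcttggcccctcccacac
Ppp2r3a: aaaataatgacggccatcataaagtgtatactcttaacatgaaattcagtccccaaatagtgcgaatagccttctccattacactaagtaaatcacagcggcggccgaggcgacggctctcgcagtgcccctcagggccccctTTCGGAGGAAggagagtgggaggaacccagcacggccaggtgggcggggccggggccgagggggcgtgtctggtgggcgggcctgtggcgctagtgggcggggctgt
Ralgds: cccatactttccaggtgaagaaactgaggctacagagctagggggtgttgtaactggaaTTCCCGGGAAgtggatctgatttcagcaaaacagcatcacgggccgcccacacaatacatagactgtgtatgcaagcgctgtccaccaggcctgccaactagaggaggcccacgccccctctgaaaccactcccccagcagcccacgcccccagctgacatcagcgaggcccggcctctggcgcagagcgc
Tlr8: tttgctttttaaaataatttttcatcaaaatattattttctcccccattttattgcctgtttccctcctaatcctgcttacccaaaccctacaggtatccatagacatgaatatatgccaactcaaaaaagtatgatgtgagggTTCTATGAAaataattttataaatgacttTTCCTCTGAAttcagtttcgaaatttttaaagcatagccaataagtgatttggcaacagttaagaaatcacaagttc
Fcgr1: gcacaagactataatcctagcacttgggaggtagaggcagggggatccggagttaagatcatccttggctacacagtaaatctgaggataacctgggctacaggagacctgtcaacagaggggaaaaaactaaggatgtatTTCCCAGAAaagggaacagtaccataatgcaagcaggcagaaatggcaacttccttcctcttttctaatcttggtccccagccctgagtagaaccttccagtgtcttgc
Gbp7: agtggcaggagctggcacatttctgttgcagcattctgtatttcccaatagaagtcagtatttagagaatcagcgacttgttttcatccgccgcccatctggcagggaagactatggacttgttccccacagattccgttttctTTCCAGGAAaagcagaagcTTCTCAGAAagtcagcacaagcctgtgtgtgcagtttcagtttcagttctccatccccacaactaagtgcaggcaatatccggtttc
The matches begin 107 bases before the start in Ppp2r3a, 191 in Ralgds, 106 and 77 in Tlr8, 109 in Fcgr1, and 106 and 87 in Gbp7. The 250 bases before Mgl2 hold neither motif. Ppp2r3a and Ralgds each have another annotated start, and the 250 bases before it hold neither motif and are not shown.

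The largest change was in Mgl2, a galactose-type C-type lectin receptor of macrophages and dendritic cells. Its signal was 9.13 without and 15.81 with IL-4 in KO1, and 8.49 and 15.51 in KO2. The arrays with IL-4 were far above those without it, and the rise was 115-fold (log2 change 6.84, SE 0.23, adjusted p = 8.06e-05 from limma). Clec10a, the neighbouring paralog that encodes the related lectin Mgl1, went from 9.75 to 14.31 in KO1 and from 9.16 to 14.13 in KO2. The rise was 27.2-fold (log2 change 4.77, SE 0.23, adjusted p = 0.000754 from limma). The 2 genes are alike in sequence, so that their probes may share signal, which was not tested.

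Receptors and receptor chains of cytokines and of innate sensing formed the next group. Il20rb encodes the beta chain of the receptor for IL-20, IL-19 and IL-24. It was below background in both clones without IL-4 (6.65 in KO1 and 6.54 in KO2) and treated cells reached 11.91 in KO1 and 11.23 in KO2. Since the level without IL-4 was only bounded, the rise was at least 28.8-fold, taken from the mean with IL-4 against the background (adjusted p = 0.00101, limma). Il1rap, the accessory chain shared by receptors of IL-1, IL-33 and IL-36, went from 9.27 to 11.31 in KO1 and from 9.14 to 10.79 in KO2. This was a 3.59-fold rise (95% interval of the log2 change 1.33 to 2.36, adjusted p = 0.0431, limma). Tlr8, an endosomal Toll-like receptor gene whose upstream sequence holds both motifs, went from 7.69 to 9.47 in KO1 and from 6.26, which is below background, to 8.24 in KO2. The change was 1.79 on the log2 scale in KO1 and could not be measured exactly in KO2 (adjusted p = 0.0372, limma).

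Among secreted factors and metabolic enzymes, Igf1 stood at the top of the signal range. This insulin-like growth factor, made by M2 macrophages, gave 14.80 without and 17.85 with IL-4 in KO1, and 15.57 and 18.12 in KO2. It rose 6.96-fold (log2 change 2.80, SE 0.28, adjusted p = 0.0236, limma). Azin2, an antizyme inhibitor that raises polyamine synthesis by protecting ornithine decarboxylase, was below background without IL-4, at 5.02 in KO1 and 4.34 in KO2. Treated cells reached 7.92 and 8.39, a rise of at least 2.70-fold (adjusted p = 0.0381, limma). Upp1, uridine phosphorylase, which splits uridine into uracil and ribose phosphate, went from 8.50 to 10.95 in KO1 and from 7.05 to 9.25 in KO2. Both clones moved by more than 2 on the log2 scale, by 2.45 and 2.20, and the rise was 5.00-fold (adjusted p = 0.014, limma).

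Genes of signalling, ubiquitination and membrane traffic made up a further group. Rnf19b, a RING-type E3 ubiquitin ligase first described in natural killer cells, went from 10.53 to 14.61 in KO1 and from 10.40 to 14.80 in KO2. The clones were close to each other on both sides, and the rise was 18.9-fold (log2 change 4.24, SE 0.22, adjusted p = 0.000754, limma). Smap2, an Arf GTPase-activating protein of clathrin-coated vesicles, went from 11.28 to 14.17 in KO1 and from 11.07 to 13.62 in KO2, a 6.59-fold rise (adjusted p = 0.00872, limma). Ralgds, an exchange factor that links Ras to Ral GTPases, went from 7.65 to 9.83 in KO1 and from 7.76 to 9.86 in KO2, a 4.40-fold rise (adjusted p = 0.0347, limma). These values barely differed between the clones, in which Ralgds moved by 2.18 and 2.10.

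The kinase and phosphatase genes of the group were dim without IL-4. Pim3, a serine/threonine kinase of cell survival and a known target of STAT signalling, was below background without IL-4 in both clones (6.19 and 6.45) and treated cells gave 8.52 in KO1 and 8.37 in KO2. It rose at least 3.30-fold (adjusted p = 0.0347, limma). Ppp2r3a, whose product is a regulatory B'' subunit of the phosphatase PP2A, was also below background without IL-4, at 6.24 and 6.64, and treated cells gave 8.95 in KO1 and 9.70 in KO2. It rose at least 6.08-fold (adjusted p = 0.0138, limma).

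Cldn11, a claudin of tight junctions best known from myelin and Sertoli cells, was bright in these cells. It went from 10.09 to 14.68 in KO1 and from 11.82 to 15.09 in KO2, a 15.2-fold rise (log2 change 3.93, SE 0.32, adjusted p = 0.00872, limma). The clones differed mainly without IL-4, and the change was larger in KO1 (4.58) than in KO2 (3.27). Atp6v0d2, a subunit of the vacuolar proton pump that is abundant in osteoclasts, went from 13.32 to 15.40 in KO1 and from 13.61 to 15.35 in KO2, a 3.77-fold rise (adjusted p = 0.0426, limma). Rai14, an actin-bundling ankyrin repeat protein also called ankycorbin, went from 11.46 to 13.33 in KO1 and from 11.26 to 12.87 in KO2 (adjusted p = 0.047, limma). Znhit3, a zinc finger protein, went from 7.12 to 10.63 in KO1 and from 6.48, below background, to 8.69 in KO2 (adjusted p = 0.0372, limma), so that its rise was measured exactly in KO1 only. The 3 probe sets without a symbol rose by 2.63, 3.11 and 3.79 on the log2 scale.

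Of the 5 genes that fell, Il17ra fell most. It encodes the chain common to receptors of the IL-17 family. Its signal was 13.41 without and 9.27 with IL-4 in KO1, and 12.38 and 9.43 in KO2. IL-4 left both clones at about the same level from different starting points, and the fall was 11.7-fold (95% interval of the log2 change −4.43 to −2.66, adjusted p = 0.0334, limma). Fcgr1, the high-affinity IgG receptor and a macrophage marker, went from 13.48 to 11.81 in KO1 and from 13.49 to 11.30 in KO2, a 3.82-fold fall (adjusted p = 0.0452, limma). Gbp7, an interferon-inducible guanylate-binding protein, went from 10.08 to 7.97 in KO1 and from 10.03 to 7.52 in KO2. The fall was 4.97-fold (log2 change −2.31, SE 0.22, adjusted p = 0.0167, limma). Fcgr1 and Gbp7 are the called genes whose upstream sequences hold TTCNNNGAA without TTCNNNNGAA.

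F2rl2, a protease-activated receptor gene (PAR3), went from 11.37 to 9.59 in KO1 and from 10.54 to 8.09 in KO2, a 4.33-fold fall (adjusted p = 0.0426, limma). Prss16, a serine protease known from the thymus, went from 10.59 to 8.82 in KO1 and from 8.63 to 6.90 in KO2, the last only just above background. Its level with IL-4 in KO1 was above that without IL-4 in KO2, so that the groups overlapped, while the change within each clone was alike, −1.77 and −1.73 (adjusted p = 0.0431, limma). The other 24 called probe sets showed no overlap between arrays with and without IL-4. Calls were picked for large changes, so this is no further support. The share of all probe sets without overlap was not computed.

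The changes of the KO clones were then set against each other over all probe sets. The change correlated between the clones with a Pearson's r of 0.238 and a Spearman's rho of 0.0753 over 22206 probe sets, and of 0.523 and 0.257 over the 9097 above background on all 4 KO arrays. These are correlations across probe sets, which are not independent replicates. With IL-4, 225 probe sets were at least 2-fold higher in KO1 and 171 in KO2. Of these, 73 were at least 2-fold higher in both clones, or 0.329% of all tested, which was 32.4% of those in KO1 and 42.7% of those in KO2. At least 2-fold lower were 251 in KO1 and 173 in KO2, and 55 in both, or 0.248%, which was 21.9% and 31.8% of the lists. Changes of at least 2-fold in opposite directions were found for 6 probe sets.

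**Figure D2:**
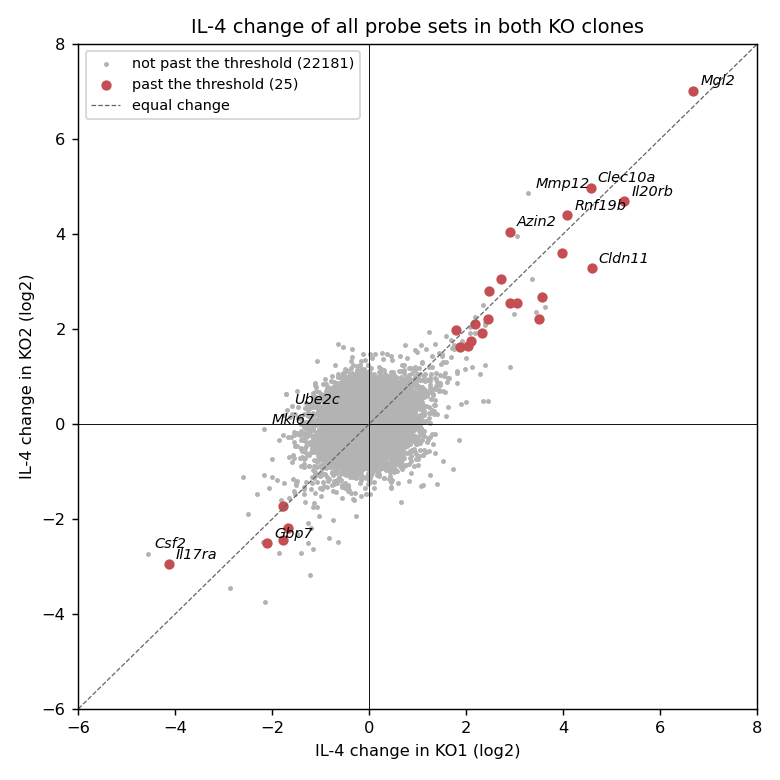
IL-4 change (log2) of all 22206 probe sets in KO1 (horizontal axis) against KO2 (vertical axis). Red points are the 25 probe sets past the threshold, grey points the 22181 others, and the dashed line marks equal change. The red points lie along the dashed line, some of them off it, such as Cldn11 (4.58 in KO1 and 3.27 in KO2). Mki67 (−2.17 in KO1 and −0.11 in KO2) and Ube2c (−1.70 and 0.30) lie further away from it.

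Several genes with large differences in both clones did not pass the test on all 8 arrays, and passed in the fit of the 4 KO arrays alone. The error of that fit comes from those 2 clones, with 1 residual degree of freedom. These genes were chosen by the smaller of the 2 clone changes, so its p-values are not independent of that choice. The adjusted p in that fit was 0.00254 for Mmp12, 0.00685 for Csf2, 0.0104 for Clec4n, 0.00574 for Id1, and 0.00722 for both Ranbp3l and Lpp (limma). Mmp12, the macrophage elastase, gave 11.18 without and 14.45 with IL-4 in KO1, and 10.40 and 15.26 in KO2 (log2 change 4.07, 95% interval 1.96 to 6.17, adjusted p = 0.392, limma). Its change within WT clones was uneven, 0.86 in WT1 and 5.43 in WT2, and the error in the fit is common to both genotypes. Csf2, the growth factor GM-CSF, gave 11.01 without and 6.44 with IL-4 in KO1, and 8.93 and 6.20 in KO2. Both arrays with IL-4 were below background, so that the difference was at least 9.41-fold (adjusted p = 0.386, limma). Clec4n, which encodes the fungal receptor dectin-2, gave 12.33 and 10.18 in KO1 and 13.54 and 9.79 in KO2 (adjusted p = 0.0621, limma).

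Further large differences that did not pass on all 8 arrays were those of Id1, an inhibitor of basic helix-loop-helix factors (log2 change −2.20, adjusted p = 0.197), Ranbp3l, a Ran-binding protein (−2.30, adjusted p = 0.229), and Lpp, a focal adhesion protein (−1.97, adjusted p = 0.291, all from limma). In these 3 genes both KO clones were at least 2-fold lower with IL-4. All of these genes were above background in both clones in the condition where they were brighter.

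The response of KO cells was compared with that of WT cells, the comparison for which the KO clones were made. IL-4 changed 35 probe sets in WT cells, or 0.158% of those tested. Of these, 21 were called in both genotypes, which was 84.0% of the KO calls and 60.0% of the WT calls. All 25 probe sets called in KO cells moved in the same direction in both WT clones. The share of all probe sets that did so was not computed. The error of the fit is common to both genotypes, so calls favour probe sets whose clones agree in each genotype. Neither this count nor the overlap of the calls is therefore independent support. The difference between the effects in KO and WT cells passed for 0 probe sets, or 0%, with a lowest adjusted p of 0.758 (limma). An unadjusted p under 0.05 was found for 455 of the 22206 tested (limma). That is a smaller share than the 0.05 expected if no effect differed. Unadjusted p-values for the difference in single genes are to be read on that scale. A passed test in 1 genotype alone is therefore not shown to be a difference between genotypes.

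**Figure D3:**
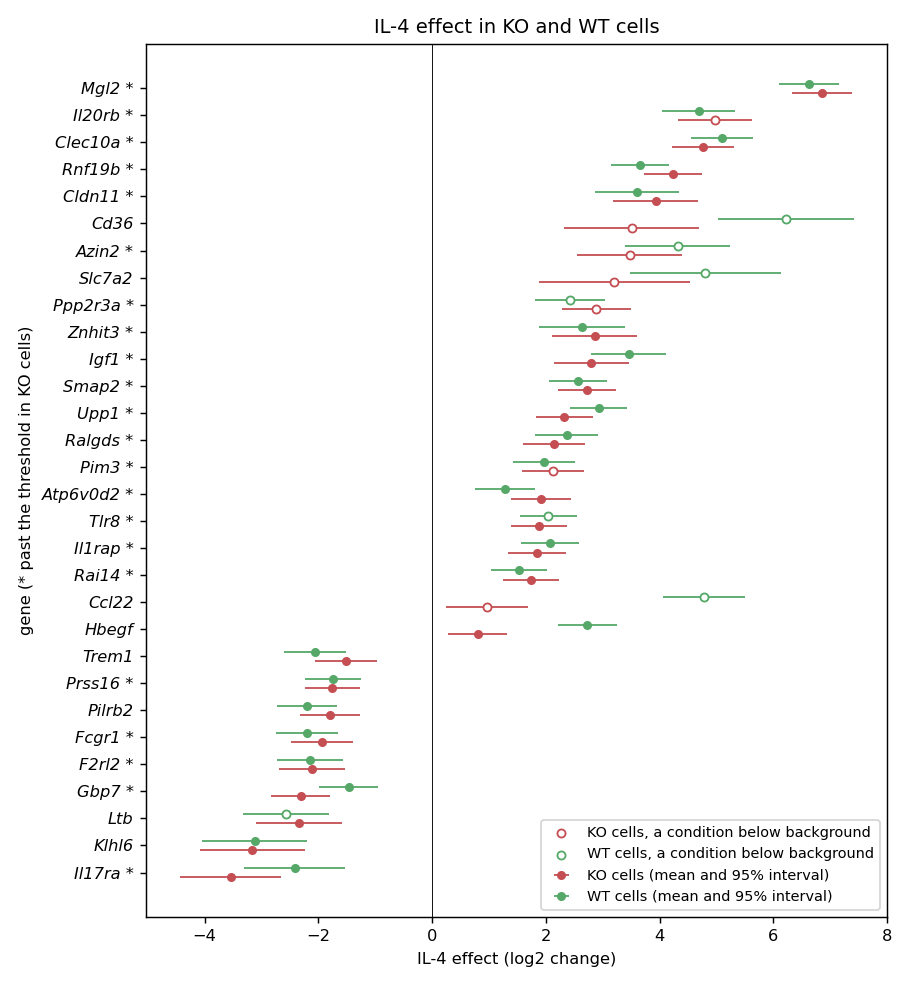
IL-4 effect (log2 change, horizontal axis) in KO cells (red) and WT cells (green) for the named genes called in KO cells, marked by an asterisk, and for 8 genes called in WT cells only. Points are means over 2 clones and bars are 95% intervals from the fit. Open points mark effects for which both arrays of a condition were below background; their plotted values and bars are those of the fit and are not exact. Among the filled points the red and green bars lie apart for Hbegf (0.80 against 2.73).

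The 4 genes called in KO cells only were Il17ra, Gbp7, Rai14 and Atp6v0d2. Gbp7 fell by 2.31 on the log2 scale in KO cells and had a log2 change of −1.47 in WT cells (adjusted p = 0.0911, limma). The difference of −0.84 had a 95% interval of −1.57 to −0.12 (unadjusted p = 0.0285, adjusted p = 1, limma), and this was the only KO call with an unadjusted p under 0.05 for the difference. Il17ra had a log2 change of −3.54 in KO and −2.42 in WT cells, with a difference of −1.13 (95% interval −2.38 to 0.13). For Atp6v0d2 the difference was 0.64 (−0.11 to 1.38) and for Rai14 0.21 (−0.49 to 0.92). These 3 intervals include 0 and reach 0.92 or further from it.

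In genes called in both genotypes and measured above background the effects were set side by side. For Mgl2 the effects were 6.84 in KO and 6.63 in WT cells, with a difference of 0.22 (95% interval −0.53 to 0.97). For Clec10a they were 4.77 and 5.09, with a difference of −0.33 (−1.10 to 0.45). For Igf1 they were 2.80 and 3.45, with a difference of −0.65 (−1.59 to 0.28). These 3 intervals reach as far as −1.59 on the lower and 0.97 on the upper side.

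Of the 35 probe sets called in WT cells, 14 were not called in KO cells, and all 14 had a change of the same sign in both KO clones. Among all probe sets, 26.1% were higher and 26.0% were lower in both KO clones. The common error of the fit favours WT calls whose KO clones agree, so the 14 are no independent support. Cd36, a scavenger receptor for oxidized lipids and fatty acids and a known target of PPARγ, was below background without IL-4 in KO cells (4.82 and 4.34) and treated cells gave 7.88 in KO1 and 8.30 in KO2. This was at least 2.58-fold higher (adjusted p = 0.0981), while the rise in WT cells was at least 25.7-fold (adjusted p = 0.00622). With IL-4 Cd36 was uneven in WT cells, at 14.02 in WT1 and 8.67 in WT2, the latter near the KO clones. It was also below background in both WT clones without IL-4, so that neither effect was measured exactly (the fit's p for the difference was 0.00623 unadjusted and 1 adjusted, all from limma). Slc7a2, a cationic amino acid transporter that supplies arginine, was likewise below background without IL-4 and gave 7.70 in KO1 and, at the edge of the background, 6.73 in KO2 after treatment (at least 1.41-fold, adjusted p = 0.205, limma).

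Ccl22, a chemokine for type 2 helper and regulatory T cells, did not exceed the background on any untreated array. In KO1 it gave 5.43 without and 6.75 with IL-4, the latter at the background, and in KO2 4.53 and 5.13, so that no fold can be given (adjusted p = 0.964). With IL-4 it gave 9.90 in WT1 and 9.03 in WT2, a rise of at least 6.99-fold (adjusted p = 0.0025). The difference of the effects was not measured exactly, and the fit gave it an adjusted p of 0.758 (all from limma). Hbegf, a ligand of the EGF receptor, gave 7.90 and 8.91 in KO1 and 7.85 and 8.44 in KO2. It had a log2 change of 0.80 in KO cells and 2.73 in WT cells, a difference of −1.93 (95% interval −2.66 to −1.19, unadjusted p = 0.000354, adjusted p = 1, limma).

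Other genes fell in WT cells without passing in KO cells. Klhl6, a BTB-Kelch protein of B cell signalling, had a log2 change of −3.16 in KO and −3.12 in WT cells (adjusted p = 0.0517 in KO cells). Ltb, lymphotoxin beta, had a log2 change of −2.34 in KO cells (adjusted p = 0.0777) and fell at least 4.99-fold in WT cells. Trem1, an amplifying receptor of inflammation on myeloid cells, had a log2 change of −1.51 and −2.06 (adjusted p = 0.131 in KO cells). Pilrb2, a paired immunoglobulin-like receptor, had a log2 change of −1.79 and −2.20 (adjusted p = 0.0526, all from limma). Each of these 4 genes was lower with IL-4 in both KO clones. Their place outside the KO calls depended on the fit. With the KO arrays alone the adjusted p was 0.00145 for Klhl6, 0.00255 for Ltb, 0.0189 for Trem1 and 0.00738 for Pilrb2. Quantile normalization gave 0.0466 for Klhl6 and 0.0409 for Pilrb2, but 0.0557 for Ltb and 0.0964 for Trem1. Without the clone as a block none of the 4 passed (0.0809 for Klhl6 and 0.512 for Ltb). Without the dimmest probe sets none passed either (0.074 for Klhl6, 0.108 for Ltb, 0.123 for Trem1 and 0.0532 for Pilrb2). With the clone as a random block only Klhl6 passed, at 0.0441 (all from limma). All 4 passed with the trend and robust options of eBayes. Cx3cr1, the fractalkine receptor, fell by 1.92 in WT cells (adjusted p = 0.044) and had a log2 change of −0.96 in KO cells (adjusted p = 0.579). The difference of 0.96 had a 95% interval of 0.16 to 1.75 (unadjusted p = 0.0242, adjusted p = 1, limma).

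The responses were then described by lists of genes with a common function, each by its counts and its median beside that of all probe sets, which was 0.001 in KO cells. These medians run over all measured genes of a list, also those below background. As a scale for these counts, 26.1% of all probe sets were higher and 26.0% were lower in both KO clones by any amount, and 4.17% had an unadjusted p under 0.05.

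Of the 33 IL-4 and M2 genes measured, 2 rose past the threshold, Mgl2 and Clec10a, and 0 fell. The median change was 0.27, 17 genes were higher in both clones and 8 were lower. Only 14 of the 33 were above background on at least 1 KO array, and 13 of the 33 had an unadjusted p under 0.05 (limma). At least 2-fold higher in both clones were 10 of the 33, against 0.329% of all probe sets. The counts of 13 and of 10 were both taken without regard to background. The list was written with earlier results of these data known, so neither count is independent support. Chil3, Retnla, Mrc1, Ccl24, Ccl17, Arg1 and Socs1 were below background on all 4 KO arrays, so that no change could be read for them. Among those that were measured above it, Egr2, a transcription factor of M2 macrophages, gave 8.47 and 11.38 in KO1 and 10.05 and 11.24 in KO2 (log2 change 2.05, adjusted p = 0.229). Flt1, a receptor of VEGF, gave 11.00 and 12.97 in KO1 and 11.24 and 12.40 in KO2 (1.56, adjusted p = 0.926), and Myc 8.02 and 9.18 in KO1 and 8.72 and 10.29 in KO2 (1.37, adjusted p = 0.229, all from limma). Egr2, Flt1 and Myc were each at least 2-fold higher with IL-4 in both clones, although none passed on all 8 arrays. With the KO arrays alone the adjusted p was 0.0413 for Myc and 0.0447 for Flt1 (limma). Both were named after their values were seen, so these p-values are not independent of that choice.

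Of the 18 genes of the IL-4 receptor and Stat6 pathway measured, 0 passed the test and 5 had an unadjusted p under 0.05, 12 were lower in both KO clones and 3 were higher, with a median of −0.18. Il4ra, the binding chain, gave 7.79 without and 7.50 with IL-4 in KO1, and 7.93 and 6.99 in KO2. Il13ra1, which pairs with it, gave 10.92 and 9.97 in KO1 and 10.85 and 10.00 in KO2 (log2 change −0.90, adjusted p = 0.584, limma). Stat6 gave 12.85 and 12.67 in KO1 and 13.07 and 12.73 in KO2 (−0.26, adjusted p = 1, limma), and Jak1 stayed between 11.27 and 11.48. The largest change of the list was in Cish, an inhibitor of cytokine signalling, with 9.31 and 12.29 in KO1 and 8.68 and 11.00 in KO2 (2.65, adjusted p = 0.432, limma). Its change was uneven in WT cells, 0.54 in WT1 and 3.60 in WT2.

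Inflammatory and interferon genes were read from separate lists. Of the 28 interferon-stimulated genes measured, 23 were lower in both KO clones and 1, Ifit2, was higher, with a median of −0.43. Of the 28, 0 passed and 6 had an unadjusted p under 0.05. Trim30a gave 10.86 and 9.98 in KO1 and 11.06 and 9.94 in KO2 (adjusted p = 0.386), Mx2 had a log2 change of −0.82 (adjusted p = 0.908) and Usp18 of −0.66 (adjusted p = 1, all from limma). The median was −0.38 in KO1 and −0.41 in KO2, and 0.21 in WT1 and −0.35 in WT2. The list holds no Gbp7, which fell in KO cells as given above. Of the 26 inflammatory M1 genes measured, 0 passed and 7 had an unadjusted p under 0.05, 12 were lower in both KO clones and 7 were higher, with a median of −0.09. Tlr2 had a log2 change of −0.99 in KO1 and −1.02 in KO2 (adjusted p = 0.386), the costimulatory ligand Cd86 of −1.26 (adjusted p = 0.276) and Nfkbiz of −1.06 (adjusted p = 0.475, all from limma).

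Of the 17 genes of the interleukin-1 family and its receptors, 1 rose, Il1rap, 9 were lower in both clones and 4 were higher, with a median of −0.33. Il18 had a log2 change of −0.47 (adjusted p = 1, limma). Of the 19 chemokines, 0 passed and 5 had an unadjusted p under 0.05, with a median of −0.01. Ccl6 had a log2 change of −1.15 in KO1 and −2.64 in KO2 (adjusted p = 0.321, limma), and Ccl2 of −0.56 and −1.30 (adjusted p = 0.798, limma). Of the 15 C-type lectins, 2 rose, the Mgl2 and Clec10a genes named above, 6 were higher in both clones and 7 lower.

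Of the 26 macrophage identity genes, 1 fell, Fcgr1, 13 were lower in both KO clones and 4 were higher, with a median of −0.17. Adgre1, the F4/80 antigen, gave 11.66 and 12.97 in KO1 and 11.69 and 12.42 in KO2 (log2 change 1.02, adjusted p = 0.543, limma). Of the 12 genes of antigen presentation by MHC class II, 0 passed, 1 had an unadjusted p under 0.05 and 4 were above background on a KO array.

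**Figure D4:**
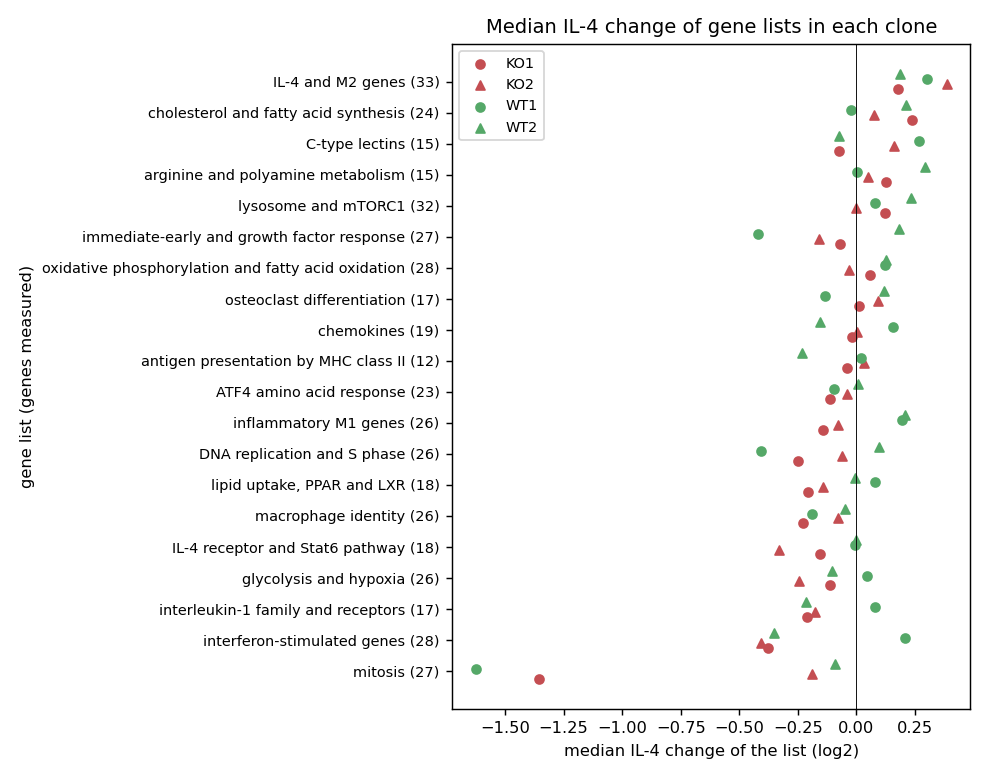
Median IL-4 change (log2, horizontal axis) of each of 20 gene lists in KO1 and KO2 (red circles and triangles) and in WT1 and WT2 (green circles and triangles), with the number of genes measured in brackets. The mitosis list has medians of −1.36 in KO1 and −1.62 in WT1, against −0.19 in KO2 and −0.09 in WT2.

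Cell cycle genes were read from lists for mitosis and for S phase. Of the 27 mitosis genes measured, 0 passed the test and 4 had an unadjusted p under 0.05, 18 were lower in both KO clones and 0 were higher. The median was −1.36 in KO1 and −0.19 in KO2, and −1.62 in WT1 and −0.09 in WT2. No difference between clones was tested. Mki67, the proliferation marker Ki-67, gave 11.57 without and 9.40 with IL-4 in KO1, and 10.54 and 10.43 in KO2 (adjusted p = 1, limma). KO1 had the higher level without IL-4 and the lower level with it. Cenpa, a centromere histone, had a log2 change of −1.76 in KO1 and 0.18 in KO2, and Ube2c, a ubiquitin-conjugating enzyme of the anaphase-promoting complex, of −1.70 and 0.30. Racgap1, a regulator of cytokinesis, went from 7.76 to 6.12, which is below background, in KO1, and gave 6.72 and 6.88 in KO2. Anln, an actin-binding protein of the cleavage furrow, was above background only in KO1 without IL-4. Of the 26 genes of DNA replication and S phase, 0 passed and 3 had an unadjusted p under 0.05, 13 were lower in both clones and 4 higher, with medians of −0.25 in KO1 and −0.06 in KO2.

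Among metabolic lists, 1 of 15 genes of arginine and polyamine metabolism rose, Azin2, and the median was 0.11. Sms, spermine synthase, had a log2 change of 0.41, and Smox, spermine oxidase, of −0.64 (adjusted p = 1 for both, limma). Of the 26 genes of glycolysis and hypoxia, 0 passed and 3 had an unadjusted p under 0.05, 18 were lower in both KO clones and 1, Pfkfb4, was higher, with a median of −0.20. Pfkfb4, a regulator of glycolytic flux, had a log2 change of 1.01 (adjusted p = 0.386), Vegfa of −0.57 and Ndrg1 of −0.90 (adjusted p = 1 for both, limma). Of the 24 genes of cholesterol and fatty acid synthesis, 0 passed and 0 had an unadjusted p under 0.05, 17 were higher in both clones and 2 lower, with a median of 0.15. Insig1, a sensor of sterols, had a log2 change of 0.37 and Fdps, farnesyl diphosphate synthase, of 0.47 (adjusted p = 1 for both, limma).

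The lists of oxidative phosphorylation and fatty acid oxidation (28 genes, median 0.00), of lipid uptake, PPAR and LXR (18 genes, −0.14) and of the ATF4 amino acid response (23 genes, −0.08) had 0 calls each, and 1, 4 and 1 genes at an unadjusted p under 0.05. Gpr137b being lysosomal, 32 lysosome and mTORC1 genes were read as well. Of these 0 passed and 2 had an unadjusted p under 0.05, 13 were higher in both clones and 8 lower, with a median of 0.05. Lipa, the lysosomal acid lipase, gave 14.43 and 15.81 in KO1 and 14.83 and 15.78 in KO2 (log2 change 1.16, adjusted p = 0.478), and Npc1, the lysosomal cholesterol exporter, had a log2 change of 0.73 (adjusted p = 0.816, both from limma). Atp6v0d2, which rose in KO cells as given above, is on the osteoclast list and not on this one. Of the 17 genes of osteoclast differentiation, 1 rose, Atp6v0d2, with a median of −0.01. Dcstamp, needed for osteoclast fusion, had a log2 change of −1.19 (adjusted p = 0.432, limma).

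Of the 27 genes of the immediate-early and growth factor response, 0 passed, 9 had an unadjusted p under 0.05 and the median was 0.03. Egr1, a transcription factor gene induced within minutes by growth factors, gave 12.39 and 10.74 in KO1 and 13.06 and 11.50 in KO2 (log2 change −1.61, adjusted p = 0.131). In WT cells it had a log2 change of −0.36, and the difference of −1.25 had a 95% interval of −2.08 to −0.42 (unadjusted p = 0.00876, adjusted p = 1, limma). Dusp6, a phosphatase of ERK, had a log2 change of −1.31 in KO1 and −1.21 in KO2 (adjusted p = 0.179, limma). Egr1 and Dusp6 were lower with IL-4 in both KO clones, while Egr2, a paralog of Egr1, was higher.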

How the data were processed

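Mouse Clariom S arrays were hybridized with RNA of 2 KO and 2 WT clones, untreated or after 48 h of IL-4. The authors ran SST-RMA in Affymetrix software (RMA is the name in the submitters' processing notes) and deposited linear intensities, of which the log2 was taken here. No genome build is given in the sources used here. Of 28846 rows, 6640 controls were left out, and 22206 probe sets were tested, of which 19572 have 1 gene symbol in the platform annotation, 0 several and 2634 none. Where several probe sets have 1 symbol, the brightest by mean over all arrays was used.

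For all 8 arrays a linear model was fitted (limma 3.58.1 under R 4.3.3), with the clone as a fixed block and an IL-4 effect for each genotype, and p-values were adjusted by Benjamini-Hochberg over all probe sets with a threshold of 0.05. Labels number the clones, which pairs the 2 arrays of each, and the deviations of paired arrays from their group means correlated at 0.161 in KO and 0.354 in WT cells. The residual spread is pooled over all 4 clones, 2 of each genotype, and the number of arrays limits the precision.

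The members and the gene lists were chosen with earlier results of these data known. Named genes were all named calls in KO cells, the 12 highest and 12 lowest by the smaller of the 2 clone changes, Gpr137b and its relatives, members of lists that were called or changed most or give the list its name, 8 genes called in WT cells only and 6 in which the KO clones disagreed most. The text gives those on which a result turns, and a few more (Myc, Flt1, Mki67) were named after their values were seen. Where both arrays of a condition were below background, the fold is a bound, from the mean of the brighter condition against the higher of background and signal in the other. Alternatives were no block, a random block, the KO arrays alone, normalization by quantiles, a filter that removed the dimmest 40%, the trend and robust options of eBayes, a 2-fold rule at an unadjusted p under 0.05, and the omission of each clone.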

Additional observations from a re-analysis of the deposited data

Results flagged for a closer look

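The list of inflammatory M1 genes had medians of opposite sign in the 2 genotypes: its median change with IL-4 was below 0 in both KO clones (−0.14 in KO1 and −0.08 in KO2) and above 0 in both WT clones (0.19 in WT1 and 0.21 in WT2). The median difference of the effects over its 26 genes was −0.18, against 0.003 over all probe sets. Only 18 of the 26 were above background on a KO array. Short lists of cell type markers with no gene above background on a KO array had median differences from −0.45 (T cells) to 0.34 (endothelial cells). The interferon-stimulated genes had −0.425. No difference between the genotypes was tested for a list.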

How the results depend on the processing

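The count of 25 probe sets changed in KO cells became 7 without the replicate block, 13 with a random block, 96 with the KO arrays alone, 109 with trend and robust, and 194 by a 2-fold change at an unadjusted p under 0.05, and 4 to 96 when a clone was left out. Leaving out KO1 gave 4, KO2 8, and either WT clone 96. Quantile normalization gave 28, and leaving out the dimmest 40% gave 23, without Fcgr1 and Azin2. The 35 probe sets changed in WT cells became 8 without the replicate block, 13 with a random block, 126 with trend and robust, 286 by the fold rule and 26 to 130 when a clone was left out. The 0 probe sets that differed between KO and WT cells became 149 by the fold rule and 0 to 2 when a clone was left out, 2 without WT2. With a WT clone left out, the remaining WT pair is fitted exactly and adds no error. The fit for KO cells is then that of the KO arrays alone, which also gave 96. The cause of the other shifts was not tested. All 7 probe sets called without the replicate block, all 4 without KO1 and all 8 without KO2 were among the 25.

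Of the named genes, 11 changed direction when a KO clone was left out: Cenpa (−1.76 to 0.18), Racgap1 (−1.64 to 0.15), Ube2c (−1.70 to 0.30), Anln (−1.59 to 0.38), Akap17b (−1.25 to 0.59), Spink2 (−0.61 to 1.36), Chil3 (−0.10 to 0.19), Retnla (−0.11 to 0.28), Mrc1 (−0.058 to 0.39), Gpr137 (−0.018 to 0.19) and Gpr137c (−0.005 to 0.49). None of these had passed the test. With a KO clone left out, the effect is the change of the other KO clone. Cenpa, Racgap1, Ube2c, Anln, Akap17b and Spink2 were named because the KO clones moved in opposite directions, so their reversal followed from that choice. Chil3, Retnla and Mrc1 were below background on all KO arrays. Akap17b, Spink2, Racgap1 and Anln were below background on at least 1 KO array. No named gene changed direction under the other alternatives, although Chil3, Retnla, Ccl24 and Socs1 were not among the probe sets left without the dimmest 40%. With the KO arrays alone 23 named genes passed that had not passed on all 8 arrays, and 0 lost the call. Besides those whose values are given elsewhere, these were Cd36, Slc7a2, Cish, Egr1, Dusp6, Itgax and Pilra. Named genes were in part chosen by their change in both KO clones, so these passes are no independent support.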

Other observations

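The following families were noticed in the data and chosen after their values were seen. Stefins are small inhibitors of cysteine cathepsins, encoded by near-identical gene copies on mouse chromosome 16 whose probes may share signal. Csta2 gave 17.16 without and 15.67 with IL-4 in KO1, and 16.89 and 14.58 in KO2 (log2 change −1.90, adjusted p = 0.0709, limma). Cstdc4 had a log2 change of −1.88 (adjusted p = 0.155), Csta3 of −1.68 (adjusted p = 0.131) and Stfa3, below background with IL-4 in both clones, was at least 1.87-fold lower (adjusted p = 0.419). All 4 were lower with IL-4 in both KO clones, and none passed the test on all 8 arrays. All 4 passed with the KO arrays alone (adjusted p = 0.0183 for Csta2, 0.0462 for Cstdc4, 0.0331 for Csta3 and 0.043 for Stfa3, limma). Since they were chosen after their values were seen, these p-values are not independent of that choice.

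The paired immunoglobulin-like receptors on chromosome 5 consist of an inhibitory member, Pilra, and activating members. Pilra gave 13.25 and 11.49 in KO1 and 13.02 and 11.77 in KO2 (−1.51, adjusted p = 0.224), Pilrb1 had a log2 change of −1.56 (adjusted p = 0.261) and Pilrb2 of −1.79 (adjusted p = 0.0526, all from limma). The members are alike in sequence, and all 3 were lower with IL-4 in both KO clones and in both WT clones.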
